A study of Mus musculus with 8 samples.

Results

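The MYC/MAX network is a small set of transcription factors of the basic helix-loop-helix leucine zipper class that compete for the partner MAX. Of its genes, 10 were followed here by their symbols (Myc, Mycn, Max, Mxd1, Mxd3, Mxd4, Mxi1, Mnt, Mga and Mlx), and all 10 were present among the 23997 gene symbols of each RNA-seq library. The cells were mouse neural stem/precursor cells (NS/PCs) of the ICR strain, taken from the telencephalon at E11.5 and grown on coated dishes with 10 ng/mL basic fibroblast growth factor. The tested cells were Nfia-transduced, that is, given an extra copy of the gene for the transcription factor NFIA, and the other group was labelled control. Each group had 3 libraries, from RNA taken on day 3 after transduction. Both groups share strain, age, tissue and culture. The labels do not describe the vector, the share of cells transduced or what the control cells received. They give embryonic day 11 in a separate field.

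MYC and MYCN bind DNA as dimers with MAX, mostly at the E-box sequence CACGTG, and raise the transcription of genes for ribosome assembly, nucleotide and amino acid metabolism and cell division. The MXD proteins (the products of Mxd1, Mxd3, Mxd4 and Mxi1), MNT and MGA also pair with MAX at the same sequence, but recruit corepressors. MLX is a MAX-like partner that serves the glucose-sensing factors MondoA (Mlxip) and ChREBP (Mlxipl). In the embryonic brain, MYCN and MYC are known for sustaining the division of precursor cells, and several MXD genes are known for rising as cells leave the cycle.

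Since the E-box is the shared binding sequence of these factors, its presence in the members' own promoters is shown first. RefSeq promoter windows in GRCm38.p6, running from 250 bases before to 50 bases after a transcription start, were found for 9 of the 10 members (all but Myc), in 11 windows. CACGTG, which reads the same on both strands, stood in the windows of 4 of these 9 genes (44.4%), against 1097 of 9193 tested genes with a window (11.9%) and 7.15% of all 32851 windows. The members that held it were Max, Mxd4, Mnt and Mlx. Each is printed below on the gene's own strand, 5′ to 3′, with the E-box in capitals:
Max, chr12:76962234-76962263, minus strand: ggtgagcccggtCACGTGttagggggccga
Mxd4, chr5:34187912-34187941, minus strand: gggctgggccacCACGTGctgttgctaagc
Mnt, chr11:74830789-74830818, plus strand: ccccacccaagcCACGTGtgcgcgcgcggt
Mlx, chr11:101087238-101087267, plus strand: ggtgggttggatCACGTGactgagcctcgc
The first base of the E-box lay at -3 from the start in Max, -40 in Mlx, -123 in Mnt and -219 in Mxd4. None of these 4 genes passed the test between the groups.

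NFI proteins bind the palindrome TTGGCNNNNNGCCAA, and more weakly its single arm TTGGC. The palindrome, searched on both strands, was in none of the members' 11 windows, and it was rare in general, at 0.0365% of all windows. The single arm, on either strand, was in the windows of 8 of 9 members, against those of 55.4% of the tested genes. Mycn and Mxd4, neither of which passed the test, had 2 single arms each. Mxi1, which passed as lower, had 0, 1 and 0 in its windows. Max, Mga, Mlx and Mnt had 1 each and Mxd3 had 0. Mxd1, the member with the largest decrease, had 3 single arms, 2 of which overlap the common promoter motif CCAAT. The 175 bases that lie in its window upstream of the annotated gene span are shown for this reason, on the minus strand, with the arms in capitals:
Mxd1, chr6:86669235-86669409: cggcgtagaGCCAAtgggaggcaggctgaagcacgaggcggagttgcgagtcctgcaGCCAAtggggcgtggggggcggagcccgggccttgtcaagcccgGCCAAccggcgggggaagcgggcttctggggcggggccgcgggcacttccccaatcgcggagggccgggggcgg
Binding of NFIA at these letters was not examined, since the ChIP samples of the series were not analysed here.

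Levels are FPKM (fragments scaled by transcript length and library size), a unit inferred from the deposited values and the tools named. Scaling by length allows only a rough comparison between genes, since the annotation behind the lengths is not given in the sources used. Nfia itself had 69.0, 85.6 and 104 FPKM in the Nfia-transduced libraries, against 19.8, 23.9 and 22.2 FPKM in the control libraries, 3.92-fold higher. These values do not separate the introduced from the endogenous transcript. The 12 markers of neural precursors summed to 5580 to 6650 FPKM in Nfia-transduced libraries and to 5640 to 6130 FPKM in control libraries, with 5 higher and 5 lower. Most of this sum was Fabp7 (2957 FPKM with Nfia, 3426 FPKM in control) and Vim (2443 FPKM with Nfia, 1888 FPKM in control). Their means differed in opposite directions, and Fabp7 did not pass, so the sum does not show that the single markers were alike. None of the 8 microglia or 8 erythroid markers reached a mean of 1 FPKM, and Hbb-y and Hba-x were listed at 0 throughout. The 8 endothelial and pericyte markers summed to 4.48 to 5.57 FPKM with Nfia, against 7.09 to 10.0 FPKM in control, and the 8 mesenchyme markers to 8.71 to 23.3 FPKM with Nfia, against 8.96 to 19.6 FPKM in control. The 8 oligodendrocyte lineage markers summed to 1060 to 1120 FPKM with Nfia, against 364 to 411 FPKM in control, with 3 higher and 2 lower; most of this sum was Olig1 (689.6 FPKM with Nfia, 227 FPKM in control) and Olig2 (373 FPKM with Nfia, 136 FPKM in control). The 8 astrocyte markers summed to 352 to 374 FPKM with Nfia, against 234 to 261 FPKM in control, with 2 of 6 tested higher and 2 lower. The higher 2 were Sparcl1 (105 FPKM with Nfia, 44.2 FPKM in control) and Aldoc (179 FPKM with Nfia, 116 FPKM in control). The lower 2 were Gfap (1.37 FPKM with Nfia, 2.36 FPKM in control) and Aldh1l1 (11.8 FPKM with Nfia, 17.1 FPKM in control). Neuron markers were present in both groups and lower with Nfia: 12 of 16 were lower and 1 higher, and their summed level was 1220 to 1230 FPKM in Nfia-transduced libraries against 1860 to 1950 FPKM in control libraries. Fewer neurons and less RNA per neuron cannot be told apart in such bulk samples, and the part of these shifts in marker levels in the values below was not tested. Relative depth, from the spacing of the lowest values, was 0.76 to 1.11 in Nfia-transduced libraries and 0.906 to 1.0 in control libraries, as multiples of control 1; absolute depth is unknown. No label states that replicate libraries are separate cultures, so p-values reflect only how these libraries vary, possibly for technical reasons alone.

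Of the 10 members, Myc rose, Mxd1 and Mxi1 fell, and the other 7 did not pass the test. Myc was 1.61-fold higher in Nfia-transduced cells, while Mxd1 and Mxi1, which encode repressors that compete with MYC for MAX, were at 0.744 and 0.816 of their control level. The common partner Max was nearly the same in both groups. Differences were taken as Nfia minus control of log2(FPKM + 1), a scale that understates changes of low genes, and tested with limma across 12537 genes averaging 1 FPKM or more, with Benjamini-Hochberg adjustment and a threshold of 0.05. All 10 members passed that filter. By this rule 16.1% of all genes were higher with Nfia and 15.1% lower (31.3% in either direction). The 1 member higher and 2 lower out of 10 are thus about the share found among all genes tested. What follows therefore describes single genes and does not set the network apart as a whole.

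**Figure D1:**
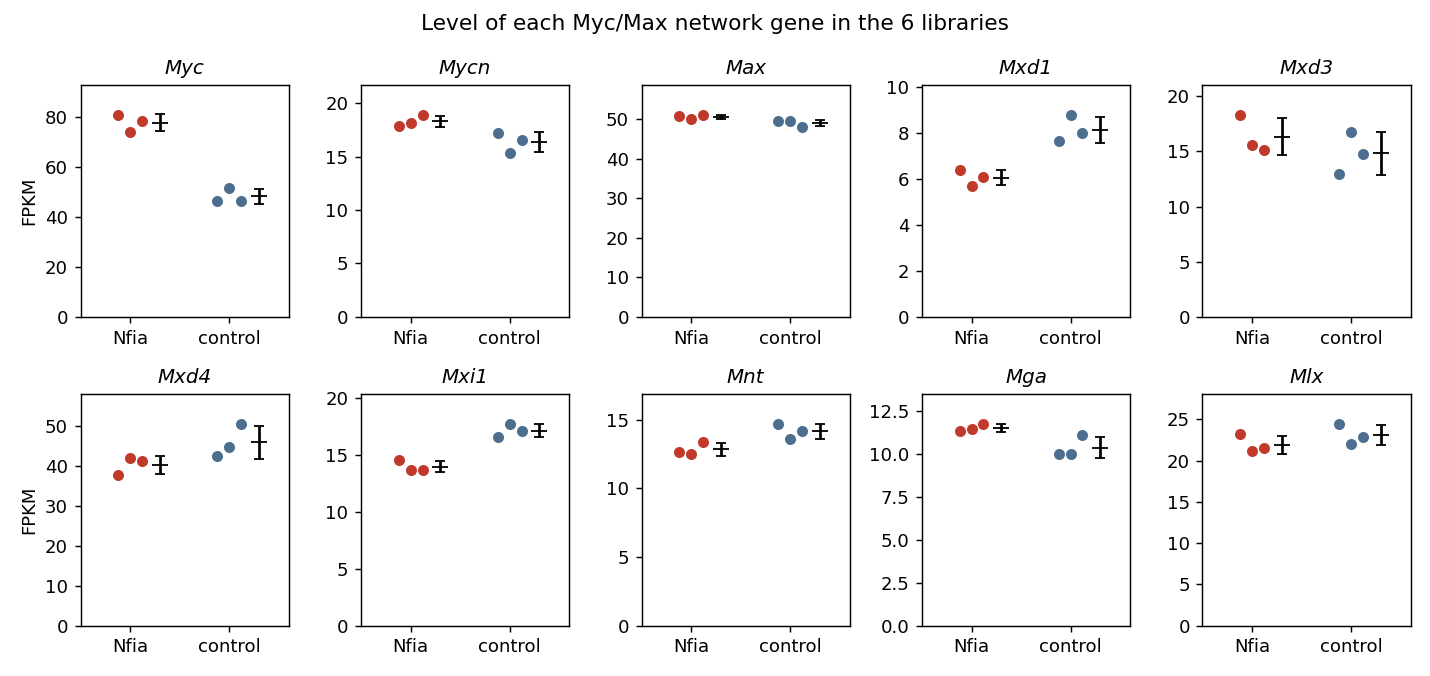
FPKM of the 10 network genes in each library (points), Nfia-transduced on the left and control on the right of each panel, with the group mean and SD (n = 3) beside the points; every axis starts at 0. Myc lies at 74.0 to 80.5 FPKM with Nfia and at 46.3 to 51.7 FPKM in control; Mxd1 and Mxi1 are apart by less, and the others are close together or overlap.

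Myc, the proto-oncogene that encodes the main activator of the network, lies on chromosome 15 from 61985341 to 61990361 in GRCm38. It had 80.5, 74.0 and 78.3 FPKM in the Nfia-transduced libraries, against 46.3, 51.7 and 46.4 FPKM in the control libraries. Every Nfia-transduced library was above every control library, with a wide gap between the groups. The log2 difference was 0.68 (SE 0.06, 95% interval 0.54 to 0.82, adjusted p = 0.000575, limma), and 3.24% of the genes tested had a larger increase. Leaving out any 1 library kept the difference between 0.65 and 0.73.

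Mycn, which encodes the relative of MYC best known from neural precursors, had 17.9, 18.1 and 18.9 FPKM in Nfia-transduced libraries, against 17.2, 15.3 and 16.5 FPKM in control libraries. The Nfia-transduced libraries all lay above the control libraries, but only just. The log2 difference of 0.15 (SE 0.05, 95% interval 0.03 to 0.28) did not pass (adjusted p = 0.0695, limma), although it did with library quality weights (adjusted p = 0.0477). Its upper bound of 0.28 is below the lower bound of 0.54 for Myc.

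Myc was the more abundant of the pair in all 6 libraries, and more so with Nfia. Mycn made up 18.2%, 19.7% and 19.4% of the summed Myc and Mycn level in Nfia-transduced libraries, against 27.1%, 22.9% and 26.2% in control libraries. The mean share was 19.1% ± 0.794 with Nfia and 25.4% ± 2.21 in control (SD, n = 3 each), and the groups did not overlap. This share is given as a description with no test.

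Max, whose product is the common partner of MYC, MYCN, MXD, MNT and MGA proteins, lies on chromosome 12 from 76937269 to 76962323. It had 50.8, 50.01 and 51.1 FPKM in Nfia-transduced libraries, against 49.5, 49.7 and 48.2 FPKM in control libraries. The log2 difference was 0.04 with a 95% interval of -0.04 to 0.13 (adjusted p = 0.404, limma), so a change of the size seen for Myc lies outside the interval. The level of Myc relative to that of Max therefore differed between groups: 1.59, 1.48 and 1.53 in Nfia-transduced libraries, against 0.934, 1.04 and 0.964 in control libraries.

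Among the MXD repressors, Mxd1, which is known for rising in differentiating cells, was the lowest of all members. It had 6.37, 5.71 and 6.09 FPKM in Nfia-transduced libraries, against 7.67, 8.77 and 8.0 FPKM in control libraries, with no overlap. The log2 difference was -0.37 (SE 0.07, 95% interval -0.53 to -0.21, adjusted p = 0.0077, limma), and 8.6% of the genes tested had a larger decrease. The annotated long noncoding RNA gene Gm38850 overlaps its span, and whether reads were assigned by strand is not given in the sources used here.

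Mxi1, the gene of a further MXD repressor on chromosome 19 from 53310128 to 53373293, had 14.5, 13.6 and 13.7 FPKM in Nfia-transduced libraries, against 16.5, 17.7 and 17.1 FPKM in control libraries. Again no Nfia-transduced library reached the control range. The log2 difference was -0.28 (SE 0.05, 95% interval -0.39 to -0.16, adjusted p = 0.00646, limma). RefSeq lists 12 transcripts for Mxi1 with several starts, and 1 value per symbol does not show which of them moved. The annotated gene Gm30541 overlaps its span.

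Mxd4, the most abundant MXD gene, had 37.7, 41.9 and 41.2 FPKM in Nfia-transduced libraries, against 42.4, 44.6 and 50.5 FPKM in control libraries. The groups lay next to each other without overlap, and the log2 difference of -0.18 (95% interval -0.36 to 0) did not pass (adjusted p = 0.11, limma). Mxd3, the MXD member known for its expression in dividing cells in S phase, had 18.3, 15.6 and 15.2 FPKM in Nfia-transduced libraries, against 12.9, 16.8 and 14.8 FPKM in control libraries. These overlap, and the interval of -0.12 to 0.39 is the widest of the 10 members (adjusted p = 0.366, limma). The span of Mxd3 overlaps that of Prelid1, so reads there may be shared if strand was not used.

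The 4 MXD genes together came to 76.9, 76.9 and 76.1 FPKM in Nfia-transduced libraries, against 79.5, 87.9 and 90.4 FPKM in control libraries. Mxd4 held most of this sum in both groups, at 52.6% ± 3.1 with Nfia and 53.4% ± 2.55 in control (SD, n = 3 each). The share of Mxd1 was 7.91% ± 0.438 with Nfia and 9.49% ± 0.58 in control. That of Mxi1 was 18.2% ± 0.624 with Nfia and 20.0% ± 0.971 in control, and that of Mxd3 21.3% ± 2.15 with Nfia and 17.2% ± 1.62 in control. Myc and Mycn together came to 98.4, 92.1 and 97.2 FPKM with Nfia, against 63.5, 67.0 and 62.9 FPKM in control. Their sum exceeded the MXD sum in every Nfia-transduced library and was below it in every control library. The ratios were 1.28, 1.20 and 1.28 with Nfia, against 0.798, 0.763 and 0.696 in control. This holds only for the genes summed, which leave out Mycl, Mnt and Mga. Mycl, the third MYC gene, had 16.8, 15.0 and 14.2 FPKM with Nfia, against 26.8, 24.8 and 24.9 FPKM in control. With Mycl counted, the order would be reversed in control 1 and control 2 and would hold only in control 3. Levels of RNA say nothing of protein amounts or of dimers formed, and MYC proteins are known to turn over fast.

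**Figure D2:**
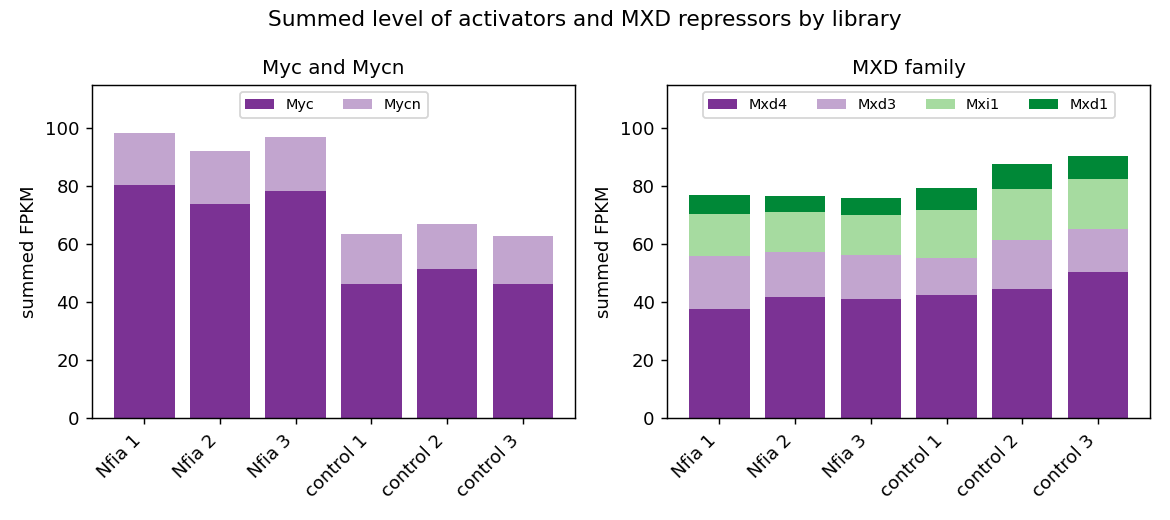
Summed FPKM of Myc and Mycn (left) and of the MXD genes Mxd4, Mxd3, Mxi1 and Mxd1 (right) in each library, Nfia-transduced libraries first; both axes start at 0 and have the same range. The sums of Myc and Mycn run from 92.1 to 98.4 FPKM in Nfia-transduced libraries and from 62.9 to 67.0 FPKM in control libraries, while the MXD sums differ by much less.

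Mnt and Mga encode large repressors that pair with MAX. Mnt, whose product is present in most cells, had 12.7, 12.5 and 13.4 FPKM in Nfia-transduced libraries, against 14.7, 13.6 and 14.2 FPKM in control libraries. Its log2 difference of -0.13 (95% interval -0.25 to -0.01) did not pass (adjusted p = 0.0953, limma), though it did with library quality weights (adjusted p = 0.0397). Mga, the gene of a protein with an additional T-box DNA-binding domain that serves in a Polycomb-related complex, had 11.3, 11.4 and 11.7 FPKM in Nfia-transduced libraries, against 9.99, 9.996 and 11.1 FPKM in control libraries. Here the Nfia-transduced libraries were the higher ones, by a small margin, and the log2 difference of 0.14 (95% interval 0.01 to 0.27) did not pass (adjusted p = 0.0963, limma). Mlx had 23.2, 21.2 and 21.5 FPKM in Nfia-transduced libraries, against 24.5, 22.05 and 22.9 FPKM in control libraries, which overlap (log2 difference -0.07, 95% interval -0.21 to 0.06, adjusted p = 0.366). The spans of Mga and Mlx overlap those of Gm13998 and Psmc3ip, so the same limit on strand holds for them.

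Counting overlap alone, the Nfia-transduced libraries lay wholly above the control libraries for 4 members and wholly below for 4, so 8 of 10 did not overlap, against 47.7% of all genes tested. Most of these separations were small: of the 8, only Myc, Mxd1 and Mxi1 passed the test.

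**Figure D3:**
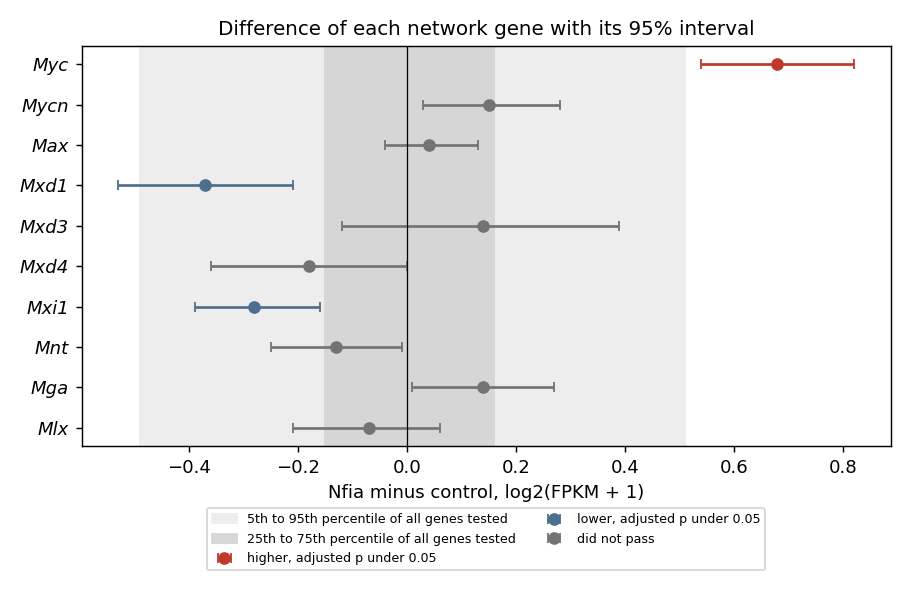
Difference of each network gene, as Nfia minus control in log2(FPKM + 1), with its 95% interval from limma (horizontal bars); grey bands hold the middle of all 12537 genes tested. Myc at 0.68 lies beyond the 95th percentile of 0.51, and Mxd1 at -0.37 and Mxi1 at -0.28 lie between the 5th percentile of -0.49 and the 25th of -0.15.

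The order of levels changed at its top. In Nfia-transduced cells it ran Myc (77.6 FPKM), Max (50.6), Mxd4 (40.3), Mlx (21.9), Mycn (18.3), Mxd3 (16.4), Mxi1 (13.95), Mnt (12.9), Mga (11.49) and Mxd1 (6.06), and only Mycn and Mxd3 overlapped among neighbours. In control cells it ran Max (49.1 FPKM), Myc (48.1), Mxd4 (45.9), Mlx (23.1), Mxi1 (17.1), Mycn (16.4), Mxd3 (14.8), Mnt (14.2), Mga (10.4) and Mxd1 (8.15). There Max, Myc and Mxd4 overlapped as neighbours, as did the run from Mxi1 through Mycn and Mxd3 to Mnt.

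The genes whose values over the 6 libraries were nearest to those of Myc, by root mean square distance of centred log2(FPKM + 1) values among 9726 genes averaging 5 FPKM or more, were Slc7a5, Nes and Alpl, at distances of 0.031, 0.033 and 0.046. Slc7a5, which encodes an importer of large neutral amino acids, had 66.8, 63.7 and 67.5 FPKM in Nfia-transduced libraries, against 38.5, 44.0 and 41.1 FPKM in control libraries, and shared with Myc the raised value in control 2. Nes encodes the precursor intermediate filament nestin and Alpl an alkaline phosphatase. Nearest to Mycn were Ktn1 and Prkag2, both at a distance of 0.018, and Paxbp1 at 0.023. The differences of these 3 genes were as small as that of Mycn, at 0.15, 0.15 and 0.17 on the log2 scale.

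Of the relatives outside the 10 members, Mycl, the third MYC gene, moved opposite to Myc. It averaged 15.4 ± 1.32 FPKM in Nfia-transduced cells and 25.5 ± 1.13 FPKM in control cells (SD, n = 3 each; log2 difference -0.70, SE 0.07, adjusted p = 0.000853, limma). The MondoA gene Mlxip averaged 8.35 ± 0.639 FPKM with Nfia and 9.11 ± 0.609 FPKM in control and did not pass (adjusted p = 0.268). Mlxipl stayed under the filter, at 0.229 FPKM with Nfia and 0.27 FPKM in control, and Mycs was listed at 0 in all libraries. The neuron markers given above moved the same way as Mycl, and their part in its value was not tested.

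In 2 of 3 lists of genes known as targets of MYC most members passed as higher with Nfia, in the third 9 of 19 did, and no member of the 3 passed as lower. The lists were drawn up from general knowledge with other results of these data known, so their counts are a description. In the list of nucleolar and translation genes, 24 of 35 tested were higher and 0 lower, against 16.1% higher and 15.1% lower of all genes, and the median log2 difference was 0.26 against 0.01 for all genes. Ppan, for a factor of large ribosomal subunit assembly, averaged 38.1 ± 0.809 FPKM with Nfia and 28.5 ± 0.859 FPKM in control (log2 difference 0.41, adjusted p = 0.000981, limma). The nucleolar helicase gene Ddx21 averaged 78.3 ± 0.764 FPKM with Nfia and 60.6 ± 2.1 FPKM in control. Wdr43, of small subunit processing, and the nucleostemin gene Gnl3 had log2 differences of 0.29 and 0.43. The 11 that did not pass included Npm1, Fbl and Eif4e (log2 differences 0.22, 0.21 and 0.11), well-known targets picked after their values were seen.

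In the list of metabolic and growth genes, 20 of 27 tested were higher and 0 lower, with a median of 0.35. Ldha, the lactate dehydrogenase A gene, averaged 429 ± 13.1 FPKM with Nfia and 211 ± 8.62 FPKM in control (SD, n = 3 each; log2 difference 1.02, adjusted p = 0.000151, limma). Tmem97, which encodes the sigma-2 receptor, averaged 48.9 ± 0.106 FPKM with Nfia and 33.4 ± 0.166 FPKM in control. Shmt2, of mitochondrial one-carbon metabolism, averaged 92.8 ± 1.87 FPKM with Nfia and 62.8 ± 3.3 FPKM in control, and Slc7a5 rose by 0.67 on the log2 scale. Telomerase gene Tert was under the filter, at 0.574 FPKM with Nfia and 0.879 FPKM in control, the other direction.

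In the list of cell cycle genes, 9 of 19 tested were higher and 0 lower, with a median of 0.19. The cyclin D1 gene Ccnd1 averaged 311 ± 8.85 FPKM with Nfia and 169 ± 15.1 FPKM in control (log2 difference 0.88, adjusted p = 0.000488, limma). The cyclin A2 gene Ccna2, Cdk2 and the cyclin D2 gene Ccnd2 had log2 differences of 0.29, 0.28 and 0.33. The call of Ccnd2 ended without Nfia 2 or control 1 (adjusted p = 0.0578 and 0.0529) and under quantile normalization (adjusted p = 0.0806). Of the 3 target lists, this one depended most on single libraries: 5 were higher without Nfia 1, 4 without Nfia 2 and 5 without control 3, and under upper-quartile scaling 1 was lower.

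E-boxes were found in the promoter windows of 10 of 30 genes of the nucleolar list (33.3%), 6 of 25 of the metabolic list (24%) and 3 of 15 of the cell cycle list (20%), against 11.9% of tested genes. A match is a description of the letters and no evidence of binding. Targets that did not pass were not looked up singly. Among the targets named above that passed as higher, Wdr43 held 1 E-box and Ldha 2. The E-boxes of Wdr43 and Ldha are printed here in GRCm38.p6 on the plus strand. CACGTG is in capitals, to be set beside those of the members:
Wdr43, chr17:71616220-71616249: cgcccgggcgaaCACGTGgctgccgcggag
Ldha, chr7:46845647-46845676: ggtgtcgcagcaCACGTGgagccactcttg
Ldha, chr7:46845744-46845773: cggcccagcctaCACGTGggttcccgcacg
In Ldha the E-boxes began at -145 and -48 from the start, and in Wdr43 at 17 bases past it.

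**Figure D4:**
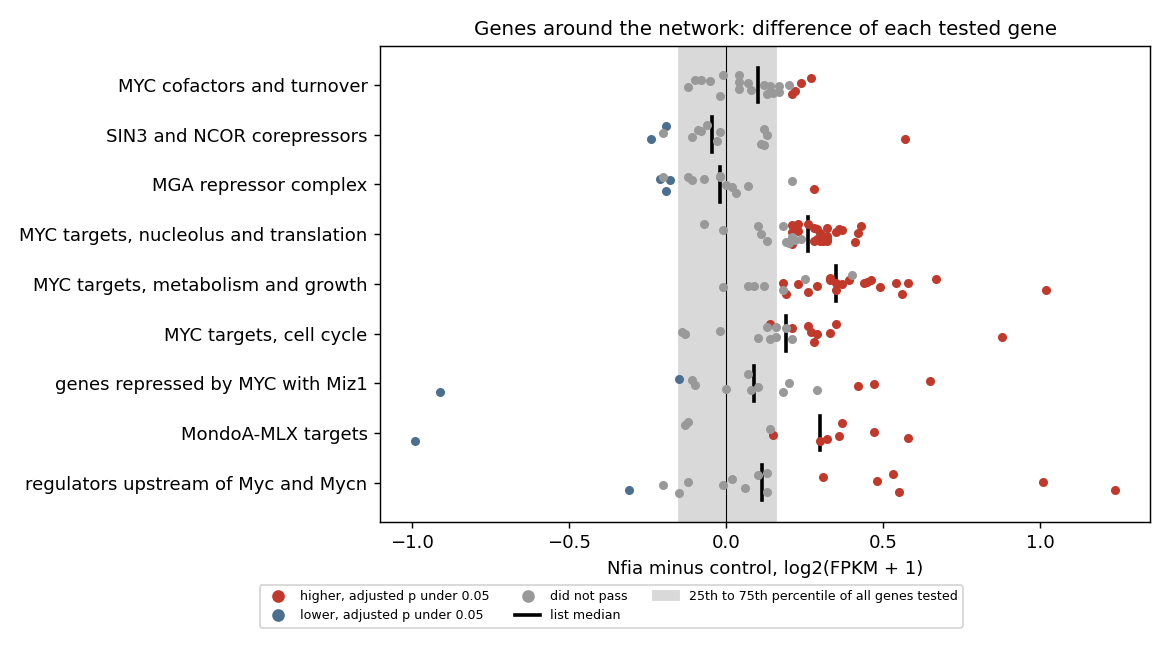
Difference of each tested gene, as Nfia minus control in log2(FPKM + 1), in the lists around the network (1 point per gene, spread vertically only for legibility; black bars are list medians; grey band, 25th to 75th percentile of all genes). The medians of the MYC target lists are 0.26, 0.35 and 0.19, against 0.01 for all genes, and the corepressor and MGA complex lists lie near 0.

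Genes listed here as repressed by MYC through its partner MIZ1 went both ways, with 3 of 14 higher and 2 lower and a median of 0.09. Such repression was not checked for each listed gene. The counts of higher and lower genes are both near the 16.1% higher and 15.1% lower of all genes. The call of Cdkn1b was lost in most alternatives, and the count of lower genes ranged from 1 to 2 under them. Klf6 (log2 difference 0.65), Ndrg2 (0.47) and Gadd45b (0.42) were higher. The p57 gene Cdkn1c, a CDK inhibitor, averaged 23.9 ± 1.89 FPKM with Nfia and 45.6 ± 4.38 FPKM in control (log2 difference -0.91, adjusted p = 0.000704, limma), and the p27 gene Cdkn1b was lower by -0.15. For Cdkn1b no call remained with a pseudocount of 0.1, no filter, a 5 FPKM filter, no variance trend or library weights (adjusted p = 0.0521 to 0.0708, limma). Its call was also lost after leaving out any single library (adjusted p = 0.0616 to 0.134). That of Gadd45b ended without Nfia 2, Nfia 3, control 1 or control 2 (adjusted p = 0.0689 to 0.112).

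Among genes known as targets of MLX with MondoA or ChREBP, 7 of 11 tested were higher and 1 lower, with a median of 0.30. Of all genes, 16.1% were higher and 15.1% lower. The 1 that fell was Txnip, the arrestin-like inhibitor of glucose uptake that is the best known MondoA target. It averaged 9.54 ± 0.457 FPKM with Nfia and 20.0 ± 1.27 FPKM in control (log2 difference -0.99, SE 0.06, adjusted p = 0.000213, limma). Its close relative Arrdc4, also a well-known MondoA target and picked after its value was seen, averaged 4.32 ± 0.342 FPKM with Nfia and 4.78 ± 0.593 FPKM in control and did not pass (adjusted p = 0.382). Klf10 (0.58), for a Krüppel-like factor, Tkt (0.36), of the pentose phosphate path, and Elovl6 (0.32), of fatty acid elongation, were among those that rose.

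Partners of the network changed less. Of 22 MYC cofactor and turnover genes, 4 were higher and 0 lower, against 16.1% higher and 15.1% lower of all genes. The count of higher genes is thus near the share of all genes. These genes were Bin1 (log2 difference 0.21), for a MYC-binding adaptor, and Ruvbl2 (0.22), for an ATPase of the TIP60 complex. The others were Usp28 (0.27), for a deubiquitinase that stabilises MYC, and Kat2a (0.24), for the acetyltransferase GCN5. Ruvbl2 lost its call without Nfia 1, Nfia 2 or control 3, Usp28 without Nfia 1, Nfia 3, control 1 or control 2, and Kat2a without control 1 or control 3 (adjusted p = 0.0501 to 0.0596). The count was 2 without Nfia 1, control 1 or control 3. Fbxw7, which encodes the ubiquitin ligase subunit that marks MYC for degradation and was picked after its value was seen, averaged 25.4 ± 1.68 FPKM with Nfia and 25.6 ± 0.614 FPKM in control and did not pass (adjusted p = 0.901).

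Of 14 corepressor genes tested, for the SIN3 complex and others that MXD and MNT proteins recruit, 2 were lower, against 15.1% of all genes. The list median was -0.04. Sap30 (-0.24) and Arid4b (-0.19), for subunits of the SIN3 complex, were lower. Sap30 lost its call without control 1 (adjusted p = 0.0532) or control 2 (adjusted p = 0.057), and Arid4b without any library but control 2 (adjusted p = 0.0619 to 0.0745). Leaving out control 1 left 0 lower, and leaving out any other library 1. Of 15 genes of the MGA complex, 1 was higher and 3 were lower, against 16.1% higher and 15.1% lower of all genes. The higher 1 was the E2F partner gene Tfdp1 (0.28). Lower were Rybp (-0.21), Ehmt2 (-0.18) and Rnf2 (-0.19), for Polycomb and histone methyltransferase subunits. The calls of Ehmt2 and Rnf2 also ended without single libraries, Ehmt2 without Nfia 2 or control 3 and Rnf2 without any but control 2 (adjusted p = 0.0504 to 0.0916). The count of lower genes was 1 without Nfia 2 or control 3, and the count of higher genes was 2 without Nfia 1.

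Of 16 tested genes that act upstream of Myc or Mycn, 6 were higher and 1 lower, against 16.1% higher and 15.1% lower of all genes. The list median was 0.11. With no filter on low values 3 were lower. Egfr, the epidermal growth factor receptor gene, averaged 45.3 ± 1.24 FPKM with Nfia and 18.6 ± 1.05 FPKM in control (log2 difference 1.24, adjusted p = 9.12e-05, limma). Notch1 (1.01), its target Hes1 (0.53) and Tcf7l1 (0.55), for a Wnt pathway factor, were also higher. The related gene Hes5, a precursor marker outside this list and picked after its value was seen, was lower. It averaged 18.3 FPKM with Nfia and 27.5 FPKM in control (log2 difference -0.57, adjusted p = 0.0163, limma). Ctnnb1, which encodes the Wnt effector beta-catenin, averaged 386 ± 16.6 FPKM with Nfia and 477 ± 20.9 FPKM in control (log2 difference -0.31, adjusted p = 0.00967). Lin28a, an RNA-binding factor of early precursors, was under the filter at 0.0274 FPKM with Nfia and 0.272 FPKM in control, and was picked after its value was seen.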

How the data were processed

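Poly(A) RNA libraries, made with a directional kit per the labels' protocols, were deposited as FPKM for 23997 symbols in each of 6 files without a header; the unit was inferred from the values and tools. Per the submitters' processing notes, Cufflinks, Cuffdiff, TopHat, SAMtools, Bowtie (version 1) and MACS (version 1.4) were used with build mm10, in unstated roles. Annotation, filters and strand handling: not given in the sources used. The 2 ChIP samples were not analysed here. Since FPKM is relative to the library, a rise of abundant transcripts lowers others, and reads of genes with close copies may be misassigned. No counts could be recovered, so no counting interval is given.

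Values were used without further scaling as log2(FPKM + 1), for the 12537 genes averaging 1 FPKM or more, and compared with limma (version 3.58.1, R version 4.3.3; two-sided, with a variance trend and 4 residual degrees of freedom, Benjamini-Hochberg over all genes tested, threshold 0.05). An exact permutation test of 3 against 3 cannot go below 0.1 and was not used. The step was tested on simulated data. Figures were drawn with matplotlib version 3.10.9.

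The members and the gene lists were chosen with earlier results of these data known. Named are the 10 members, Nfia, the 4 called genes lowest in adjusted p per list, all called genes where a direction had 5 or fewer, and the 3 genes nearest to Myc and to Mycn; others are marked as picked later or described as under the filter. Positions and promoters are from RefSeq tables of GRCm38.p6, the assembly that mm10 denotes, matched by symbol; promoter windows were found for 9193 of the genes tested. Alternatives were a pseudocount of 0.1, no filter, a filter at 5 FPKM, quantile, upper-quartile and median-of-ratios scaling, no variance trend, library weights, a replicate block and leaving out each library. Whether same-numbered libraries of the groups form pairs could not be decided (see the closing section). The main fit did not use the numbers as pairs. 1 result of the corepressor list is not reported here.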

Additional observations from a re-analysis of the deposited data

How the results depend on the processing

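The members' differences, the counts over all genes and members and the counts of the lists around the network were recomputed under 15 alternatives. The shares within the network were recomputed only with medians; marker counts, non-overlap counts, ratios, the order of levels and likeness were not recomputed. The calls of Myc (log2 difference 0.65 to 0.73, adjusted p at most 0.00447), Mxd1 (-0.42 to -0.32, at most 0.0322) and Mxi1 (-0.31 to -0.25, at most 0.0308) held under all 15, and no member changed direction under any. With library weights 2 members were higher in place of 1, since Mycn passed (log2 difference 0.15, adjusted p = 0.0477), and Mnt passed as lower (-0.15, adjusted p = 0.0397). Over all genes, leaving out 1 library gave 1311 to 1724 higher against 2020. The replicate number as a replicate block left the members' calls as they were (Myc 0.68, adjusted p = 0.00447, limma). Same-numbered libraries correlated at 0.026, -0.006 and 0.046 in their deviations from the group means, and other pairs at -0.103 to 0.08. With 3 libraries per group, such values cannot decide whether the numbers mark pairs. The mesenchyme marker Col3a1, picked after its values were seen, was lowest in Nfia 1 and control 1. It had 1.19, 5.54 and 4.84 FPKM with Nfia, against 1.32, 4.71 and 5.02 FPKM in control. Col1a1, Col1a2, Dcn, Lum, Prrx1, Postn and Twist1 were also lowest in these libraries, several of them near 1 FPKM. Whether this reflects a shared preparation was not tested. Under the replicate block 5 in place of 3 of the genes listed as repressed with MIZ1 were higher. The 3 scalings gave 24 higher of the nucleolar list throughout, 17 to 20 of the metabolic and 7 to 9 of the cell cycle list. Leaving out 1 library gave 17 to 27, 14 to 20 and 4 to 9. With 3 libraries per group and unknown depth, a miss of the threshold does not show that a member was the same in both groups.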
